A study of Homo sapiens with 18 samples.

Results

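The 50037 regions described here were detected with both linker histone antibodies by xChIP-seq and with neither antibody by xxChIP-seq. They were taken base by base as the overlap of the xChIP H1.2 and xChIP H1.5 peak lists, minus every base of the xxChIP H1.2 and xxChIP H1.5 lists, on chromosomes 1 to 22 and X, and segments of 1000 bp or more were kept. The members were thus chosen by the peak calls of all 4 lists, and their coverage by these lists is given only as a description. They are 50037 of the 515726 segments of that length that any combination of the 4 lists gives, and they covered 173.6 Mb, or 6.12% of the 2836 Mb of known sequence. The cells were undifferentiated, untreated HL-60/S4, a single human myeloid leukemia line, so all groups share 1 cell type. In xChIP, formaldehyde-fixed chromatin was sonicated before the antibody was added. In xxChIP, the antibody was bound to fixed, permeabilized cells, a further fixation followed, and the chromatin was sonicated only afterwards. Both protocols used rabbit polyclonal antibodies to H1.2 or to H1.5, with 3 replicates each, and 6 Input samples were not used here. The deposited lists are merges over the 3 replicates and hold positions without scores, so the spread between replicates and the depth are unknown, and every comparison below is a description with no test between protocols.

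Linker histones bind where DNA enters and leaves the nucleosome and help chromatin to fold into compact states. H1.2 and H1.5 are somatic isotypes that are present together in most human cells. An antibody in a permeabilized nucleus must reach its epitope through folded chromatin, whereas sonicated fragments present it in solution. A region seen in xChIP and not in xxChIP was therefore enriched for the epitope after fragmentation, without being called in the intact nucleus.

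The sequences below are examples chosen for extreme GC content or for a covered promoter. They are not typical of the segments, which had a median GC of 42.6% and of which 4.12% touched a promoter. The first pair are the central 200 bp of the segments with the highest and the lowest GC content among those of 5 kb or more. The other 3 are the 200 bp before the transcription start site (TSS) of NCF1, RPL19 and PSMB5, whose promoters lay wholly inside segments. All were read from GRCh37, 5′ to 3′, and capitals mark CpG dinucleotides.
Highest GC, chr10:135491481-135491680, plus strand: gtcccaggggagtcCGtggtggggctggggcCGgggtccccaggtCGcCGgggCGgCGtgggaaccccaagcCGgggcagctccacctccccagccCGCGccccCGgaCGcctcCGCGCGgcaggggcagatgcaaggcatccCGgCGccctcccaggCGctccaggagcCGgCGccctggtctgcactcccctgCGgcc
Lowest GC, chr4:127427476-127427675, plus strand: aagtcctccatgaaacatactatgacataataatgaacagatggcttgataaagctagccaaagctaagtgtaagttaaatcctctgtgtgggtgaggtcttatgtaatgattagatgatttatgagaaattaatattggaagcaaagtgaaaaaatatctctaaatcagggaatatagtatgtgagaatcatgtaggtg
NCF1 promoter, chr7:74188158-74188357, plus strand: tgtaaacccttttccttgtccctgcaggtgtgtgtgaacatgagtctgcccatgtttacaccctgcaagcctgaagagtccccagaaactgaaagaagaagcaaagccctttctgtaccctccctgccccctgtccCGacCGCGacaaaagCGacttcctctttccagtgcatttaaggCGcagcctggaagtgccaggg
RPL19 promoter, chr17:37356336-37356535, plus strand: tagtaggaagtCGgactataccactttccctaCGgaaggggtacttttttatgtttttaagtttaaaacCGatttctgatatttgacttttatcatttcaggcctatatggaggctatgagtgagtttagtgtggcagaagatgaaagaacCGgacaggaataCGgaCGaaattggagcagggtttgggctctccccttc
PSMB5 promoter, chr14:23504440-23504639, minus strand: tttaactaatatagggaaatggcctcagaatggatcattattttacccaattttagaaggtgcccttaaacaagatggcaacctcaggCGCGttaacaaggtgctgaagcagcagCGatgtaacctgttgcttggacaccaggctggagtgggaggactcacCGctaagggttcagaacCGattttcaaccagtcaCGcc
The window with the highest GC lies in the exon of the pseudogene DUX4L13 near the end of chromosome 10, with 79.5% GC and 20 CpG. Its segment, chr10:135483217-135499945, had 71.1% GC over 16729 bp. The authors kept uniquely mappable reads only, and how well this stretch maps was not tested. The window with the lowest GC, from a 5895-bp segment with 31.6% GC on chromosome 4, held 0 CpG. NCF1, RPL19 and PSMB5 had 5, 6 and 6 CpG in the 200 bp before the TSS, so none of the 3 promoters was as CpG-dense as the DUX4L13 window.

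The segments were short and were mostly bounded by the xChIP H1.5 list. Their median length was 2210 bp, with quartiles of 1452 and 4051 bp, and the longest measured 90885 bp. Segments of 5000 bp or more numbered 9125 and held 48.2% of the covered bases, and 405 reached 20000 bp. Of the 100074 segment ends, 58.2% lay at an edge of an xChIP H1.5 peak, 22.2% at an edge of an xChIP H1.2 peak and 19.6% at an edge of an xxChIP peak. A whole xChIP H1.5 peak made up 19052 segments, or 38.1%, against 3998 that were a whole xChIP H1.2 peak. The typical segment was thus an H1.5 peak, or a stretch of it, inside a broader H1.2 peak, with a median parent peak of 10984 bp for H1.2 and 3839 bp for H1.5. These figures describe what the rule selected. Of the bases in both xChIP lists, 72.4% were in no xxChIP list, 9.87% were also in xxChIP H1.2 alone, 9.48% in xxChIP H1.5 alone and 8.22% in both. The threshold of 1000 bp removed 25700 shorter runs with 5.36% of the bases. Runs of 990 to 999 bp numbered 166 with a median GC content of 42.1%, and those of 1000 to 1009 bp numbered 286 with 42.5%.

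Many segments lay beside chromatin that xxChIP did detect. An xxChIP peak touched 34.7% of the segments directly, the median distance to the nearest xxChIP peak was 2592 bp, and 15.3% of the segments were over 10 kb from any. The rule cuts the xChIP overlap at xxChIP edges, so some contact is built in. No background was computed for these distances, and they are given as a description. Segments also lay near each other. The median gap to the next segment was 21860 bp, 33.9% of gaps were under 10 kb and 16.2% were over 100 kb. A single xChIP H1.2 peak held as many as 30 segments, and peaks of 20 kb or more held 36.2% of the segments and 47.3% of their bases.

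The segments were richer in GC than the genome and much richer than their mirror image. Their median GC content was 42.6%, with quartiles of 39.3% and 46.9%. The 55122 segments with both isotypes in xxChIP and neither in xChIP had a median of 37.7%, and the 8896 segments covered by all 4 lists had 38.7%. Pooled over bases, GC was 43.5% in the segments, 40.9% in known sequence, 37.7% in the mirrored segments and 39.3% in all 4 lists. The local difference was smaller, since the 10 kb on either side of a segment had a median of 41.9%, and 56.5% of the segments exceeded their own flanks. Of all segments, 38.4% were below the genome mean, so the set is not a GC-rich class throughout.

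**Figure D1:**
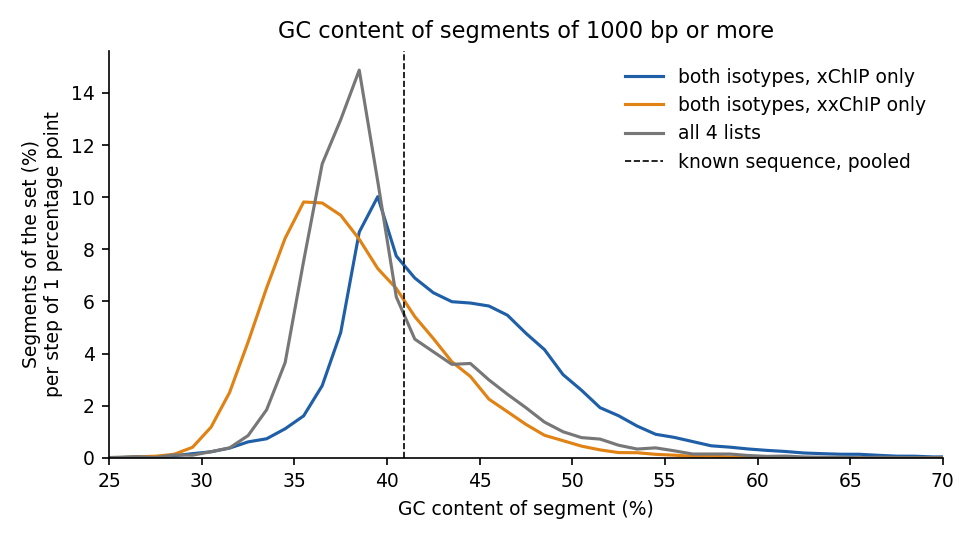
GC content of segments of 1000 bp or more, as the percentage of each set per step of 1 percentage point, for both isotypes in xChIP only (n = 50037), both in xxChIP only (n = 55122) and all 4 lists (n = 8896). The dashed line is the pooled GC of known sequence, 40.9%. The xChIP-only curve has a shoulder above 44%, whereas most xxChIP-only segments lie to the left of the line.

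The same order was seen among bases in both xChIP lists when they were divided by the number of xxChIP lists that also covered them. Pooled GC was 43.5% with no xxChIP list, 41.5% with xxChIP H1.2, 41.3% with xxChIP H1.5 and 39.6% with both. The share of bases within 1000 bp of a protein-coding TSS was 1.37%, 0.266%, 0.283% and 0.308% in the same order. Known sequence held 1.30%, so the xChIP overlap without xxChIP was near the genome share, and bases in no list held a larger share. Bases in xxChIP H1.2 alone and xxChIP H1.5 alone were low as well, at 0.345% and 0.431%. The contrast thus lay in a low promoter share where xxChIP had peaks, while GC fell with each added xxChIP list. Bases in xChIP H1.2 alone were richer than the overlap without xxChIP, with 45.5% GC and 2.76% promoter sequence. Those in xChIP H1.5 alone were poorer, with 38.8% and 0.988%. In GC and promoter share, bases in both xChIP lists thus lay between those in either list alone. In exonic share they lay below both, with 2.49% against 5.77% for xChIP H1.2 alone and 3.83% for xChIP H1.5 alone.

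CpG dinucleotides were also denser than in the genome and in the mirrored segments. The median ratio of observed to expected CpG was 0.240 per segment, against 0.173 for the mirrored segments and 0.180 for all 4 lists. Pooled over bases the ratio was 0.276 in the segments and 0.236 in known sequence. A ratio of at least 0.6 was reached by 568 segments, or 1.14%, so CpG-dense segments were few. CpG islands were taken as stretches of at least 200 bp with GC of at least 50% and a ratio of at least 0.6. Repeats were not masked, so repeat sequence can count as island. Such islands made up 8.88% of the bases of the segments and 4.94% of known sequence. Of 357454 such islands 45098 were touched by a segment (12.6%), and of 37785 islands that met stricter limits (500 bp, 55% and 0.65) 5324 were touched (14.1%, 95% Wilson interval 13.7% to 14.4%, which like all intervals here covers counting error only). The mirrored segments touched 351 of the stricter islands, or 0.929%. Segments of xChIP H1.2 alone had a median ratio of 0.238, a pooled ratio of 0.289 and 10.3% of their bases in islands. They covered 361 Mb and touched 34.6% of the stricter islands. The CpG content was thus shared with xChIP H1.2 alone and not particular to the overlap of the isotypes.

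A repeat-derived word differed in density between the sets. The word ctgggattacag is part of the Alu repeat and is the most frequent 12-base word of the genome that holds every base at least 2 times. Counted on both strands, it occurred 553 times per Mb in the segments, 258 times per Mb in known sequence and 185 times per Mb in the mirrored segments, with 272 per Mb in all 4 lists. At least 1 copy was present in 54.9% of the segments. Bases in segments of xChIP H1.2 alone held 536 copies per Mb, so the high density was shared with the H1.2 list and was not particular to the overlap of the isotypes. These are counts of a single word and not of annotated repeats. The word GGGCGG, the GC box bound by Sp1-type factors and also present in Alu repeats, gave 325 matches per Mb against 183 in known sequence and 72.6 in the mirrored segments. Segments of xChIP H1.2 alone gave 356 per Mb, so this density was not particular to the overlap either. The myeloid ETS factor core AGGAAGT, as bound by PU.1, gave 204 per Mb against 212 in known sequence, and CCGGAAG, the core of other ETS factors, 25.1 against 24.9, so neither ETS word stood above the genome. The E-box CACGTG gave 108 per Mb against 96.7, and 128 in segments of xChIP H1.2 alone. The authors kept uniquely mappable reads only, and the part of repeat mappability in these densities was not tested.

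Within genes the segments lay in introns. Protein-coding genes held 45.6% of their bases and 45.8% of known sequence, but exons held 2.49% against 3.82%, coding exons 0.773% against 1.26%, and introns 43.1% against 42%. The mirrored segments had 32.0% of bases in protein-coding genes and 0.861% in exons. Genes of long noncoding RNAs held 16.3% of the segment bases, 22.4% of the mirrored bases and 18.9% of known sequence, and 39.9% of the segment bases were outside any annotated gene. Of the segments, 24501 touched a protein-coding gene, 23031 lay wholly inside gene bodies, 7183 touched an exon and 2064 touched a promoter. Segment midpoints were a median of 44.4 kb from the nearest protein-coding TSS, against 163 kb for the mirrored segments and 105 kb for all 4 lists. Within 10 kb of a TSS were 16.7% of the midpoints and 11.5% of known sequence, but within 1 kb 1.24% and 1.30%. Midpoints of segments of xChIP H1.2 alone were a median of 43.2 kb away, with 17.8% within 10 kb and 2.31% within 1 kb. The segments were thus gathered in the surroundings of genes and not at the start sites themselves. Nearness to genes was shared with xChIP H1.2 alone.

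Both ends of genes showed a dip relative to their flanks. Around the TSS of protein-coding genes, segments covered 10.3% of genes between 5000 and 4000 bp upstream, 6.06% within 100 bp of the TSS and 8.08% between 4000 and 5000 bp downstream. The lowest point, 6.01%, lay 200 to 300 bp downstream of the TSS. Segments held 6.12% of known sequence, so coverage at the TSS was near the genome share and the flanks stood above it. Each list alone also fell between the farthest upstream step and the lowest point of the segments. There xChIP H1.2 fell from 44.4% to 36.7% and xChIP H1.5 from 18.9% to 10.1%. The fall was from 13.6% to 3.54% for xxChIP H1.2 and from 11.2% to 3.53% for xxChIP H1.5. The dip at the TSS was thus not particular to the segments. At the transcription end site the lowest point was 4.46%, at 700 to 600 bp before the end, and coverage rose to 9.37% between 4000 and 5000 bp beyond it. The dip at the gene end was therefore deeper than at the TSS and lay inside the gene. Along the bodies of 14863 genes of at least 10 kb cut into 20 equal bins, coverage was 7.54% in the first bin, peaked at 9.26% in bin 4 and declined to 4.86% in the last. The mirrored segments covered 0.864% of genes within 100 bp of the TSS, against 2.85% between 5000 and 4000 bp upstream.

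**Figure D2:**
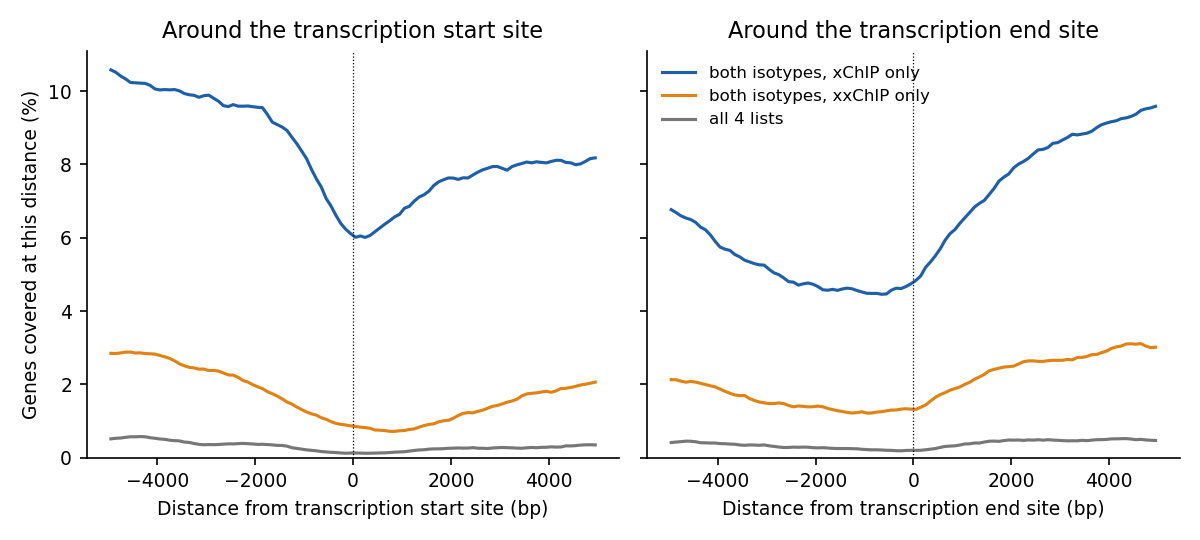
Percentage of protein-coding genes covered by a segment at each distance, in steps of 100 bp, around the transcription start site (left) and end site (right), with distance in bp along the direction of transcription. Blue is both isotypes in xChIP only, orange both in xxChIP only, grey all 4 lists. The blue curve falls to 6.01% just after the start site and to 4.46% before the end site, and stays above the other curves throughout.

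Promoters were taken as the TSS ± 1000 bp of 20098 protein-coding genes. Segments overlapped 2377 of them, or 11.8% (95% Wilson interval 11.4% to 12.3%). The TSS itself lay in a segment in 1216 genes (6.05%), and 684 promoters lay wholly inside segments (3.4%). The mirrored segments overlapped 356 promoters (1.77%). Of promoters with a stricter CpG island, 12.8% were overlapped (12.3% to 13.4%), and of those without, 9.56% (8.84% to 10.3%), whereas for the mirrored segments the order was the opposite, at 0.601% and 4.45%. Each list alone overlapped 48.2% of promoters in xChIP H1.2, 21.6% in xChIP H1.5, 8.78% in xxChIP H1.2 and 7.92% in xxChIP H1.5, so of the xChIP lists H1.5 reached fewer promoters. Among promoter sequences from 250 bp before to 50 bp after the TSS, those with the TSS in a segment held GGGCGG in 53.0% of cases, against 52.2% of all promoters and 16% of those overlapped by mirrored segments. The ETS core CCGGAAG was held by 15.6%, 11.8% and 3.65%, and TATAAA by 7.65%, 10.9% and 23.9%, on either strand.

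The wide xChIP H1.2 peaks carried most of these promoters. The 18122 segments inside H1.2 peaks of 20 kb or more had a median GC of 44.9% and 3.45% of their bases in exons, and 7.44% of them touched a promoter. The 31915 segments in shorter H1.2 peaks had 41.2% GC and 1.62% exonic bases, 2.24% touched a promoter, and together they overlapped only 806 of the 2377 promoters. Length of the segment itself followed a bent course. Median GC was 43.4% for segments of 1000 to under 2000 bp, 41.7% for 5000 to under 20000 bp and 45.9% for the 405 of 20000 bp or more, and exonic bases were 3.27%, 1.91% and 3.67%. All 405 of the longest class lay in H1.2 peaks of 20 kb or more, and 40.5% of them touched a promoter, a share that also grows with length alone.

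Gene lists for the machinery of transcription and translation stood above the 11.8% found over all protein-coding genes. Cytosolic ribosomal protein genes had 22 of 79 promoters overlapped (27.8%, 19.2% to 38.6%), and mitochondrial ribosomal protein genes 20 of 78 (25.6%, 17.3% to 36.3%). General transcription factors and TBP-associated factors had 17 of 54 (31.5%, 20.7% to 44.7%), and RNA polymerase II subunits 6 of 16 (37.5%, 18.5% to 61.4%). Chromosome 7 weighed on the last pair. Without it, the polymerase list had 2 of 12 (16.7%) and the general factors 13 of 49 (26.5%), while the cytosolic ribosomal list, which has no gene there, kept 22 of 79 and the mitochondrial list had 19 of 74 (25.7%), against 11.3% of all genes off chromosome 7. Mediator subunits had 6 of 30 (20.0%) and proteasome subunits 5 of 39 (12.8%), with intervals that include the background. Over all genes, xChIP H1.2 touched 48.2% of promoters and xChIP H1.5 21.6%. In the cytosolic ribosomal list they touched 61 and 28 of 79, and in the mitochondrial list 52 and 25 of 78. In the general factors they touched 42 and 22 of 54, and in the polymerase list 13 and 8 of 16. The excess was thus present in each xChIP list and not particular to the segments.

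The HOX, clustered protocadherin, keratin-associated protein, keratin and olfactory receptor lists stood below it, with upper limits under 11.8%. These limits take each promoter as independent. Neighbouring genes of a cluster can share a peak or its absence, so the limits are too narrow for clustered genes and cannot set these lists apart. No promoter was overlapped in 39 HOX genes, which pattern the body axis (upper Wilson limit 8.97%), in 53 clustered protocadherins (6.76%), in 94 keratin-associated proteins (3.93%), in 27 taste receptors (12.5%), in 17 interferon genes (18.4%) or in 10 cohesin and CTCF genes (27.8%). The last 3 limits lie above the background share, so these lists are too small to be set apart from it. Olfactory receptors had 11 of 399 (2.76%, 1.55% to 4.87%), keratins 1 of 55 (1.82%) and zinc finger genes 50 of 508 (9.84%), with an upper limit of 12.7% that includes the background. The mirrored segments, which overlapped 1.77% of all protein-coding promoters, overlapped 42 of 399 olfactory receptor promoters (10.5%), 4 of 55 keratins, 6 of 94 keratin-associated proteins and 3 of 27 taste receptors. They overlapped 0 HOX, protocadherin or cohesin and CTCF promoters, 0 of the ribosomal, polymerase II, Mediator and proteasome lists and 1 of 54 general transcription factors, and at a background of 1.77% counts of 0 or 1 in lists of this size show no leaning. HOX promoters were touched by xChIP H1.2 in 14 of 39 cases and by xChIP H1.5 in 0, so their absence from the segments lay with H1.5. Absence at the promoter was not absence from the gene, since 36 of 53 protocadherins and 7 of 10 cohesin and CTCF genes had a segment in the body, beside 48.2% of all protein-coding genes. The protocadherin genes share long overlapping bodies, which repeats the same segments.

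**Figure D3:**
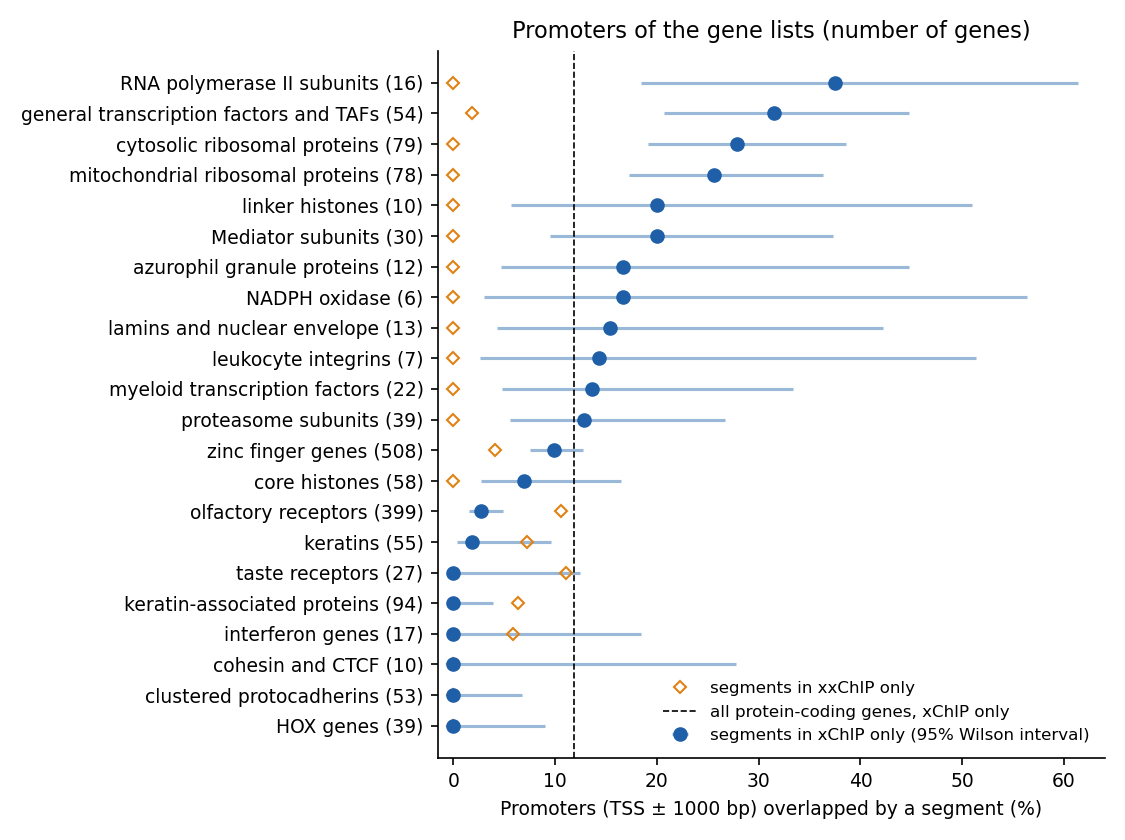
Percentage of promoters (TSS ± 1000 bp) overlapped by a segment in each gene list, with the number of genes in brackets. Blue points are both isotypes in xChIP only with 95% Wilson intervals, open orange diamonds both in xxChIP only, and the dashed line is the 11.8% of all protein-coding genes. The lists of the transcription and translation machinery lie to the right of the line, and HOX, protocadherin and keratin-associated genes lie at 0.

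Among cytosolic ribosomal protein genes, 5 of 79 promoters lay wholly inside segments. Among general transcription factors and TBP-associated factors 8 of 54 did, and over all protein-coding genes 684 of 20098 (3.4%). The 8 include GTF2I, GTF2IRD1 and GTF2IRD2B on chromosome 7. RPL19, RPL35A, RPS25 and RPS3 were among the 5 ribosomal promoters. By the rule such promoters are wholly in both xChIP lists and in no xxChIP list. RPL35A (chr3:197677061-197683481) and RPS25 (chr11:118886422-118889401) lay in segments over 100% of the gene. RPLP0, which encodes a protein of the ribosomal stalk, had 96.8% of its promoter in segments, the H1.5 list being the shorter. The RPL19 segment was 3293 bp long and equal to its H1.5 peak, inside an H1.2 peak of 52679 bp. Of the mitochondrial list, MRPL36, MRPL53, MRPL57 and MRPS17 had whole promoters inside segments, and the last 3 had the whole gene. PSMB5, the chymotrypsin-like catalytic subunit of the proteasome, and PSMC1, an ATPase of its cap, were likewise wholly covered at the promoter, whereas PSMB4 had 37.4% of the promoter in segments and PSMC3 14.9%.

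Genes of the transcription machinery were divided between chromosome 7 and elsewhere. POLR2F, GTF2E1, GTF2F2 and TAF12, on chromosomes 22, 3, 13 and 1, had whole promoters in segments. POLR2G on chromosome 11 had the whole promoter and 78% of its gene. On chromosome 7, GTF2I, GTF2IRD1, GTF2IRD2B and POLR2J3 had whole promoters, POLR2J2 84.1%, with xxChIP H1.5 over 15.9% of that promoter, and POLR2J 11%. POLR2J3 stands under 2 gene identifiers in the annotation and was counted for each. POLR2J2, POLR2J3, GTF2I and GTF2IRD2B belong to families with near-identical copies on that chromosome, and since only uniquely mappable reads were kept, their values are uncertain. Of the Mediator, MED18 had 93.5% of its promoter in segments, and MED22, MED15, MED12L, MED19 and MED28 between 0.750% and 47.3%.

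Myeloid genes were not set apart from the background. Of 12 azurophil granule proteins 2 were touched. AZU1, azurocidin, had 75.0% of its promoter in segments, and LYZ, lysozyme, had 57.2%, with the TSS inside in both. Of 22 myeloid transcription factors 3 were touched, and none had its TSS inside. CEBPD had 49.4% and KLF4 38.9% of the promoter in segments, and SPI1, which encodes PU.1, had 1.80% of its promoter but 64% of its gene (chr11:47376411-47400098) in segments. In all 5 genes xxChIP covered 0% of the promoter, which the rule fixes for the part in segments. Over all protein-coding genes, xxChIP H1.2 touched 8.78% and xxChIP H1.5 7.92% of promoters, so 0% in 5 genes shows no leaning. NCF1, the p47phox subunit of the NADPH oxidase, was the 1 gene of 6 in its list, with promoter and gene wholly inside a segment of 53180 bp, chr7:74177699-74230878. NCF1 has pseudogene copies nearby, so this value is uncertain as well. ITGB7 was the 1 leukocyte integrin of 7, with 1.75% of its promoter.

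Histone and nuclear envelope lists were not set apart from the 11.8% of all protein-coding promoters. Linker histones had 2 of 10 (20.0%, 5.67% to 51.0%) and nuclear envelope genes 2 of 13 (15.4%, 4.33% to 42.2%). For core histones the interval was 2.71% to 16.4%. Of 10 linker histone genes, the germline genes H1-7 and H1-8 had 30.7% and 11.5% of the promoter in segments, and neither H1-2 nor H1-5, which encode the antigens, was among them. Of 58 core histone genes 4 were touched, namely H4C13 (39.4%), H4C7 (37.2%), H3C12 (13.3%) and H2AC17 (9.40%), a share of 6.90%. SUN1, an inner nuclear membrane protein, had its whole promoter in a segment, and LMNA, which encodes lamins A and C, had 6.90% of the promoter and 32.1% of the gene. Among the remaining lists, ZNF217, ZNF296, ZNF346, ZNF490, ZNF517, ZNF554 and OR2AP1 had whole promoters inside, and KRT13 had 36.2%. OR6C75 had 86.8%, OR2B11 50.1%, OR4K13 35.8%, OR7A5 33.8% and OR7C1 24.2%, and in OR2B11, OR7A5 and OR7C1 xxChIP H1.5 covered between 31.8% and 41.3% of the promoter.

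The 10 longest segments ran from 65376 to 90885 bp, and 5 of them lay on chromosome 7. The longest, chr7:74481130-74572014, was a whole H1.5 peak and held the start of RCC1L, a protein of mitochondrial ribosome assembly, and all of GTF2IRD2B. The second, chr7:72623235-72712675, held no protein-coding gene. The third, chr12:122022217-122109637, held all of ORAI1, the pore of the store-operated calcium channel, and 96.2% of MORN3. The fourth, chr7:102120150-102199154, held all of RASA4B and UPK3BL2 with parts of POLR2J3, SPDYE2 and ENSG00000270249, and had the highest GC of the 10 at 54.7%. The first, the third and the fourth thus each took in at least 1 whole gene with both of its ends.

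Several of the other long segments also spanned neighbouring genes. On chromosome 6, chr6:74126762-74203453 held the promoters of CGAS, the cytosolic DNA sensor, and MTO1, a mitochondrial tRNA-modifying enzyme. With neighbouring segments, 94.6% of CGAS, 81.96% of MTO1, 51.7% of the translation elongation factor gene EEF1A1 and 48.9% of DDX43 were covered. On chromosome 3, chr3:10145219-10219899 held all of VHL, the substrate receptor of the ubiquitin ligase for hypoxia-inducible factors, and all of BRK1, a subunit of the WAVE actin regulator, with the promoters of IRAK2 and FANCD2OS. A further segment, chr3:138510980-138579660, held the promoter of PIK3CB, a catalytic subunit of phosphoinositide 3-kinase. The segments chr7:74867504-74937003 and chr7:74976196-75044293 held the promoters of SPDYE9, TRIM73 and AC006014.1, and parts of those of GATSL2 and SPDYE14. The tenth, chr4:49093264-49158639, near the centromere of chromosome 4, held no annotated gene and had a CpG ratio of 0.778, against 0.268 to 0.381 in the other 9.

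Genes ranked by the share of the body in segments were mid-sized and wholly covered. Of 17227 protein-coding genes of 5 kb or more, 38 lay wholly inside segments and 442 had at least 50% in them. The longest of the 38 were GTF2IRD2B (57260 bp), RASA4B, RABEPK, SNUPN, HPD, EAPP, RPA2, TFR2, RILPL2 and ORAI1 (16711 bp). Among these, SNUPN encodes the import adaptor of spliceosomal ribonucleoproteins, RPA2 a subunit of the single-strand DNA binding protein, TFR2 a transferrin receptor and HPD an enzyme of tyrosine breakdown. Ranked by covered bases instead, long genes led, namely EYS (131170 bp, 6.60% of the gene), DOCK3, CUX1, STXBP5L, SUMF1, ENSG00000282278, ULK4, CLIP2, HIP1 and CCSER1 (101104 bp, 6.84%). In 8 of these the segments left the promoter untouched. Segments overlapped only 11.8% of all protein-coding promoters, so an untouched promoter is the usual case and not a trait of these genes. CLIP2, a microtubule-binding linker protein with 88.6% of its gene covered, and HIP1 with 49.4% had whole promoters inside. Of 3660 genes of 100 kb or more, 87.9% had a segment in the body, against 39.4% of shorter genes.

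Other gene classes stood on either side of the 11.8% of protein-coding genes. Over all 63826 annotated genes, 6645 promoters were overlapped (10.4%). Promoters were overlapped in 8.07% of 18592 long noncoding RNA genes, 10.6% of 9949 processed pseudogenes, 8.15% of 3029 miRNA genes and 12.4% of 1455 snoRNA genes. Small nuclear RNA genes stood highest, with 306 of 1897 (16.1%, 14.5% to 17.9%), and miscellaneous RNA genes had 16% of 2025. Both classes consist largely of dispersed copies, and their place among repeats was not tested.

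Along the genome the segments followed gene-dense sequence in windows but not in whole chromosomes. In 2846 windows of 1 Mb, the share in segments had a Pearson r of 0.44 with the number of genes (Spearman 0.50) and 0.41 with GC, given without p because neighbouring windows share chromatin domains and base composition. The mirrored segments had -0.43 and -0.58. The r between both sets was -0.44 (Spearman -0.52), and since no base can belong to both, some opposition is built in. Median coverage was 2.82% in the 357 windows without a gene and 8.49% in the 235 windows with 20 genes or more, whereas mirrored coverage fell from 10.2% to 1.10%. Some coverage was nearly everywhere, with 2844 windows holding a segment base. Over the 23 chromosomes, r with gene density was -0.11 and with GC -0.15, and r with the mirrored segments was 0.60 (Spearman 0.65), the opposite sign to that over windows. Without chromosome 7, the window r with gene number was 0.45.

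**Figure D4:**
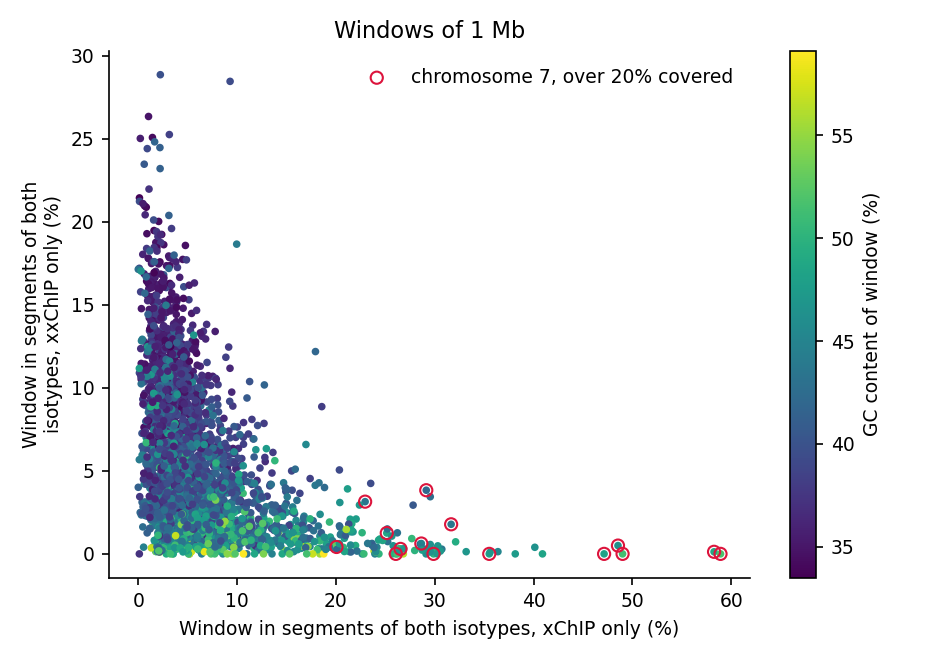
Each point is a window of 1 Mb (n = 2846), with the percentage of its known sequence in segments of both isotypes in xChIP only (horizontal) and in xxChIP only (vertical), coloured by GC content. Red circles mark the 15 windows of chromosome 7 with over 20% in xChIP-only segments. Windows rich in one kind of segment are poor in the other, and the 5 highest windows, from 47.1% to 58.9%, are all on chromosome 7.

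The 5 windows with the highest coverage were all on chromosome 7. The first, chr7:100000001-101000000, was covered to 58.9%, and 28 of its 40 promoters were overlapped, among them those of EPO, the erythropoietin gene, and TFR2, which lay wholly inside. The others were the 4 adjoining windows from 72 to 76 Mb, the Williams syndrome region and its flanking duplications, with 47.1% to 58.3%. There 7 of 12, 9 of 17, 9 of 13 and 12 of 15 promoters were overlapped, in order of position, and mirrored segments covered at most 0.499% of any of the 5 windows. GTF2I, GTF2IRD2B and NCF1, which have copies on chromosome 7, lie in these windows. Only uniquely mappable reads were kept, so the coverage there is uncertain. Of the 96 windows covered over 20%, 15 were on chromosome 7, while 2690 of all 2846 windows lay off it.

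Coverage by chromosome differed over 3-fold in range, from 2.52% to 8.42%. Chromosomes 12 (8.42%), 7 (8.41%) and 6 (7.75%) stood highest, and 16 (2.52%), X (3.32%) and 10 (3.52%) lowest. The order was close to that of the xChIP H1.5 list, which covered 20.6%, 20.0% and 20.0% of the highest and 7.69%, 10.2% and 11% of the lowest, with r = 0.97 over 23 chromosomes. The correlation is partly fixed by the rule, which takes the segments from that list. For xChIP H1.2 r was 0.56, and chromosome 16, lowest in segments, had 27.0% of its sequence in xChIP H1.2. The share of the xChIP overlap that no xxChIP list covered varied less, from 63.6% on chromosome 4 to 75.7% on chromosome 8. Chromosomes 12 and 7 were nearly equal, and without replicates the order of neighbours cannot be set against an error.

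**Figure D5:**
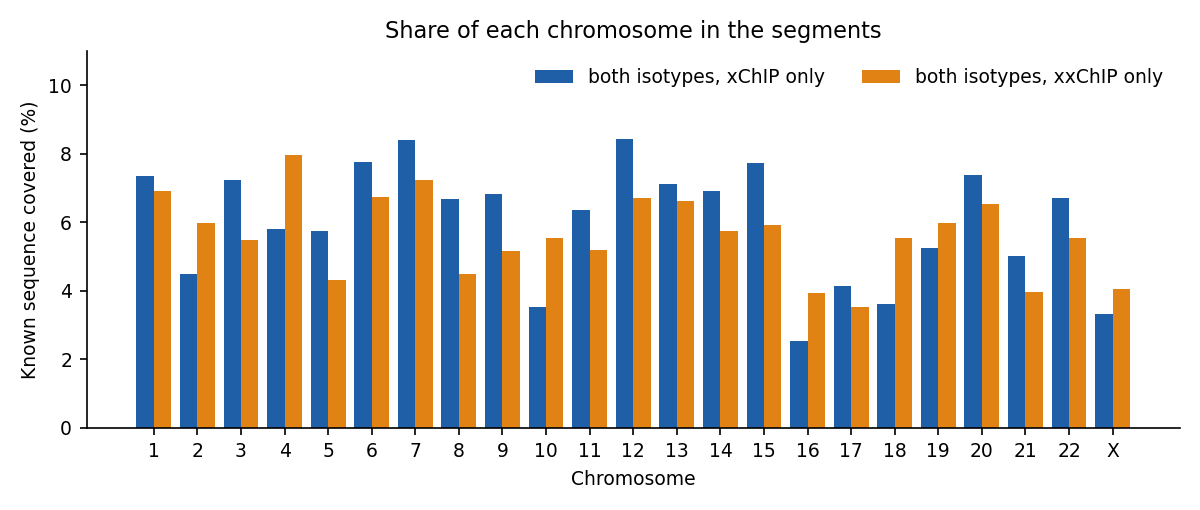
Percentage of the known sequence of each chromosome in segments of both isotypes in xChIP only (blue) and in xxChIP only (orange). Blue runs from 2.52% on chromosome 16 to 8.42% on chromosome 12, and exceeds orange on most chromosomes, but not on 2, 4, 10, 16, 18, 19 and X.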

How the data were processed

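H1.2 and H1.5 were immunoprecipitated from HL-60/S4 cells by xChIP and xxChIP, in 12 samples (3 replicates for each of 4 groups, as the titles give them), with 6 Input samples not used here. Per the paper's methods, paired-end reads were mapped by the authors with Bowtie2 (build hg19, unique alignments only), MUSIC was run with default settings on each replicate, and the 3 resulting peak sets of a group were merged. The deposited values are start and end positions in bp (unit other), with no count, height or score, so depth is unknown and no value carries a replicate error.

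The lists were painted on the primary assembly of GRCh37, which has the hg19 sequence, and segments were taken as stated in the text. A recount with bedtools 2.31.1 gave the same 50037 segments, and the interval steps were tested on simulated lists. Genes came from GENCODE 44 lifted to GRCh37. Gene coverage profiles used steps of 100 bp. Shares of features carry 95% Wilson intervals, and no test was made because each group is 1 list. Python 3.11.15, numpy 2.4.6, pandas 2.3.3, scipy 1.17.1, numba 0.67.0 and matplotlib 3.10.9 were used.

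The members and gene lists were chosen with earlier results of these data known. Named were the 10 longest segments with their genes, the 10 genes with the most bases and the 10 with the highest share in segments (5 kb or more), up to 6 genes a list by promoter bases covered, the 5 highest windows, and the 3 highest and lowest chromosomes. Sequences followed the same rule, except that a window overlapping an annotated UTR was left out. Some items that the rule names are not reported here. Word densities and values without chromosome 7 were added after the data were seen. Alternatives changed the minimum length, the width of xxChIP peaks, the chromosomes, the parent peaks, gaps, and the promoter, exon and island definitions.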

Additional observations from a re-analysis of the deposited data

How the results depend on the processing

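No paired analysis was possible because the 3 replicates of a group were merged into 1 list without replicate numbers, and for the same reason no replicate could be left out. Counts were called moved beyond 1.5 times, and other values outside the 95% interval of the value as reported, which is narrow for so many segments. For the exonic share the interval, 2.485% to 2.490%, took single bases as its units. Neighbouring bases are not independent, so an exonic share outside it says little. With a minimum of 500 bp the median length was 1883 bp, GC 42.5%, the CpG ratio 0.236 and the exonic share 2.49%. With 2000 bp there were 27721 segments of median length 3745 bp, with 42.2% GC and 2.31% exonic bases. With xxChIP peaks widened by 500 bp, median length was 2235 bp, GC 42.9%, the ratio 0.243 and the exonic share 2.52%. On chromosomes 1 to 22 alone GC was 42.8%, the ratio 0.242 and the exonic share 2.54%. In H1.2 peaks under 20 kb there were 31915 segments of median length 2021 bp, with 41.2% GC, a ratio of 0.215, 806 promoters, 1.62% exonic bases and 16883 islands, the lowest values of promoters and islands for any choice of segments. A promoter of TSS ± 2500 bp gave 3869 genes, a promoter covered to 50% or more 1223, and all annotated genes 6645 promoters and 3.67% exonic bases. Stricter islands gave 5324. Pooled GC was 43.5% and mean length 3469 bp. The cause of these shifts was not tested, apart from what each definition fixes. All 7 values stayed within their limits when segments within 10 kb of a gap were left out. The unknown depth and the merging of replicates limit every value.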
